A study of Mus musculus with 6 samples.

Results

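The 10 genes described here, Havcr1, Lcn2, Vcam1, Sox9, Spp1, Clu, Cp, Prom1, Cd24a and Igfbp7, mark injured tubule cells of the kidney and tubule cells that fail to regain their mature state. They were taken by gene symbol from a table of 19176 rows, 1 row for each of the 10. Renal cortex was sequenced from 3 mice given vehicle (UIRI group) and 3 mice given BA (UIRI + BA group). All were wild-type male C57BL/6J mice of young adult age with unilateral ischemia-reperfusion injury (UIRI). BA, which the labels call brucine A and the study's methods Bruceine A, a quassinoid of Brucea javanica, was injected intraperitoneally at 1 mg/kg each day. Both groups were injected daily from the day of surgery and were killed on day 14, and in both the methods describe clamping of the left renal pedicle and removal of the right kidney on the day before. Kidneys without injury were not analysed here, and so what the injury itself changed cannot be read from these libraries. The libraries come from mixed tissue, in which fewer cells of a type and less RNA per cell cannot be told apart.

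After ischemia, proximal tubule cells lose their transporters, take up a flattened, dividing state and then either mature again or stay in an inflamed, profibrotic state. Havcr1 and Lcn2 are the classic early injury markers, while Sox9 marks cells that re-enter the repair program. Vcam1 marks the cells that stay behind, and Spp1, Clu, Cp, Prom1, Cd24a and Igfbp7 are raised in injured tubules to different degrees. Several of the 10 also have sources outside the tubule, such as neutrophils for Lcn2, macrophages for Spp1, B cells for Cd24a, and endothelium and fibroblasts for Vcam1 and Igfbp7.

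The libraries held 16510720 to 38124164 reads on genes, UIRI replicate 3 being the deepest. Mature proximal tubule genes were plainly present, the lowest value of the phosphate transporter Slc34a1 being 7708 normalized counts. Thick limb genes were abundant as well, with Umod between 13945 and 25967. Urothelium genes set libraries of a group apart, their 9 genes summing to 199 to 745 in UIRI and 78.9 to 464 in UIRI + BA, with the highest sum of each group in replicate 3. A normalized count here is a read count divided by a size factor of its library. Differences are given on the log2(normalized count + 1) scale, as UIRI + BA minus UIRI, from limma fitted over all rows.

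Havcr1 and Lcn2 are the pair that the study also read by PCR, where it reports both mRNAs lower with BA. Here Lcn2 was lower with BA but Havcr1 was higher, and the cause of that difference was not tested. The primers of both are shown because they fix which segment of each transcript stands for the gene in the PCR. The counts here cover the whole gene. Both Havcr1 primers lie in coding sequence of exon 2, at chr11:46752375-46752397 and chr11:46752414-46752434 on the plus strand, and match 4 of 4 annotated transcripts. The Lcn2 primers lie in coding sequence of exons 1 and 2, at chr2:32387698-32387716 and chr2:32387063-32387085 on the minus strand, and match 4 of 6 transcripts. Positions are from GENCODE M21 on GRCm38, and the amplicons are 60 and 239 bases long.
Havcr1 forward: acatatcgtggaatcacaacgac
Havcr1 reverse: acaagcagaagatgggcattg
Lcn2 forward: tggccctgagtgtcatgtg
Lcn2 reverse: ctcttgtagctcatagatggtgc

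Between UIRI and UIRI + BA, Havcr1 and Vcam1 were higher with BA and Lcn2 was lower, each without overlap between the groups. In limma, 0 of the 10 passed an adjusted p of 0.05, as did 0% of all rows. Before adjustment, 3 of the 10 were under 0.05, beside 10.3% of all rows. Of the 3, 2 were higher with BA (5.67% of all rows) and 1 was lower (4.61% of all rows). Without overlap between groups were 4 of the 10, Cp being the fourth, against 14.4% of all rows. After quantile normalization the groups overlapped for Cp, which left 3. Over the 10 genes, 5 lay above and 5 below 0, and the median of their log2 fold changes was -0.0013 beside -0.0053 over all rows. The study itself, with DESeq2 and an adjusted p below 0.05, reports genes changed in both directions between these groups. On whole reads recovered from the values, DESeq2 placed Lcn2 and Havcr1 below an adjusted p of 0.05, where it placed 1.49% of the rows to which it gave one. Without UIRI replicate 3, limma placed 3 of the 10 there, Lcn2, Sox9 and Havcr1, against 5.02% of all rows.

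**Figure D1:**
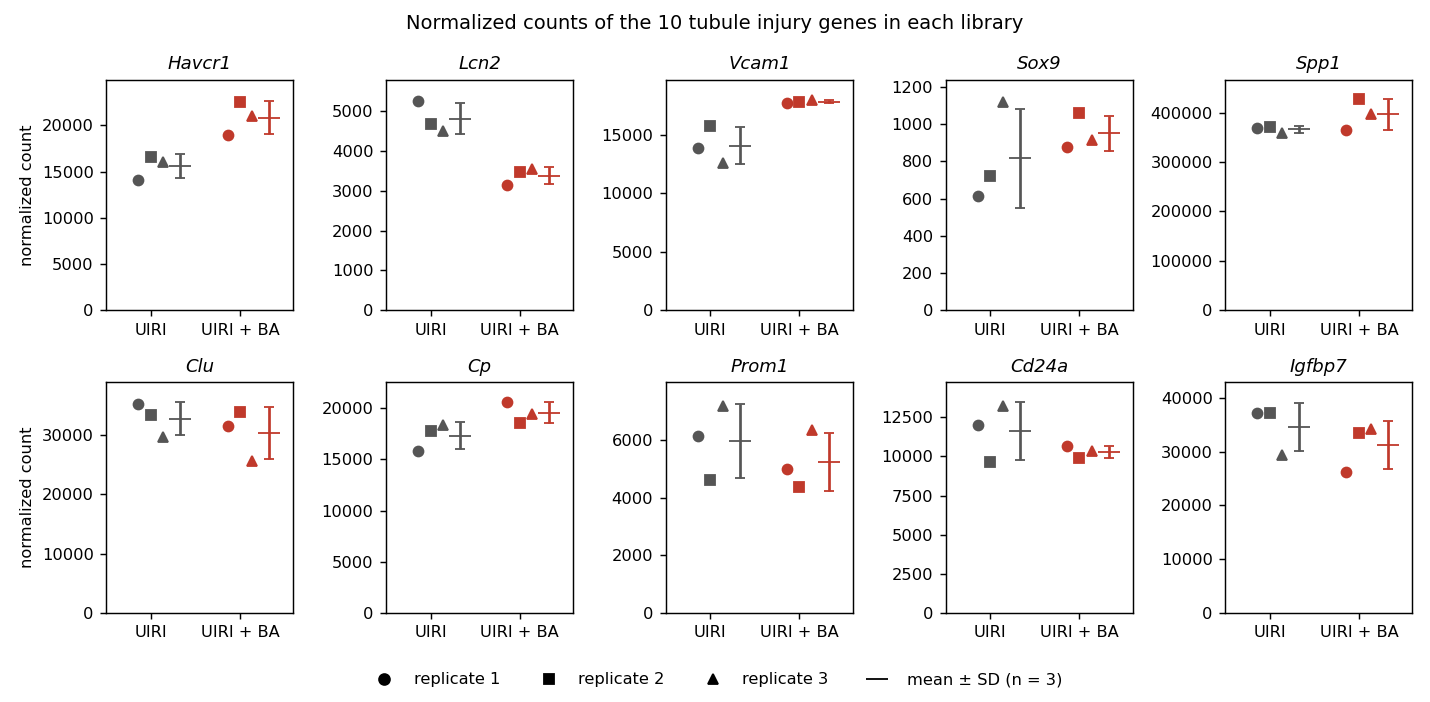
Normalized counts (linear axes from 0) of the 10 genes in 3 UIRI libraries (grey) and 3 UIRI + BA libraries (red). Each symbol is 1 library and the bar beside the symbols is the mean ± SD. The groups stand apart for Havcr1, Vcam1 and Cp, which were higher with BA, and for Lcn2, which was lower.

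Havcr1 encodes kidney injury molecule-1, a membrane receptor by which injured proximal tubule cells bind and engulf dying neighbours. It lies at chr11:46735080-46779578 on the plus strand, with 4 transcripts of up to 8 exons. Its normalized count was 14125, 16614 and 16012 in mice 1 to 3 of the UIRI group and 18944, 22559 and 21074 in mice 1 to 3 given BA. Every UIRI + BA library lay above every UIRI library. The means were 15584 ± 1299 (SD, n = 3) and 20859 ± 1817 (SD, n = 3). The log2 fold change was 0.42 (standard error, SE, 0.10, 95% interval 0.19 to 0.65), which is 33.8% more, with a limma adjusted p of 0.263. The exact two-sided permutation test gave p = 0.1, the smallest value that 3 against 3 allow. DESeq2 gave a log2 fold change of 0.42 with an adjusted p of 0.0127. Over the 6 fits without 1 library the value lay between 0.35 and 0.49.

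Lcn2 encodes NGAL, a secreted lipocalin that binds iron-loaded siderophores and is released by injured distal and proximal tubules and by neutrophils. It lies at chr2:32384633-32388252 on the minus strand, with 6 transcripts of up to 7 exons. Its normalized count was 5260, 4687 and 4507 in mice 1 to 3 of the UIRI group and 3137, 3469 and 3539 in mice 1 to 3 given BA. Here the order was the other way round, since the highest UIRI + BA library lay below the lowest UIRI library. The means were 4818 ± 393 (SD, n = 3) and 3382 ± 215 (SD, n = 3). The log2 fold change was -0.51 (SE 0.086, 95% interval -0.70 to -0.31), with a limma adjusted p of 0.225 and p = 0.1 in the exact permutation test. Leaving out 1 library at a time kept it between -0.56 and -0.44. DESeq2 gave a log2 fold change of -0.51 with an adjusted p of 7.6e-04.

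Neutrophil markers moved with Lcn2. Of 9 looked for, 5 were in the table. All 5 were lower with BA, 3 of them with an unadjusted p below 0.05, beside 4.61% of all rows. Their summed normalized count was 1286 to 1761 in UIRI and 1050 to 1178 in UIRI + BA, without overlap. S100a9, which neutrophils carry in large amounts, read 399.9, 299 and 274 under vehicle and 198, 199 and 198 under BA (log2 fold change -0.69, limma adjusted p 0.225). The defining markers Ly6g, Ngp, Mpo and Retnlg had no row in the table, which holds only genes with at least 10 reads over the 6 libraries. The part of neutrophils in the lower Lcn2 was not tested.

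Vcam1 encodes an adhesion molecule that holds leukocytes through the integrin of Itga4 and Itgb1. It lies at chr3:116109949-116129688 on the minus strand, with 4 transcripts of up to 9 exons. Its normalized count was 13846, 15765 and 12595 in mice 1 to 3 of the UIRI group and 17766, 17781 and 17980 in mice 1 to 3 given BA. All UIRI + BA libraries lay above all UIRI libraries, and they differed little among themselves, with a coefficient of variation of 0.669% beside 11.3% in UIRI. The log2 fold change was 0.35 (SE 0.096, 95% interval 0.13 to 0.57), with a limma adjusted p of 0.311 and p = 0.1 in the exact permutation test. DESeq2 gave an adjusted p of 0.0592. The receptor genes Itga4 and Itgb1 had log2 fold changes of 0.11 and 0.012, neither with an unadjusted p below 0.05. Endothelium genes, another source of Vcam1, summed to 9863 to 11575 in UIRI and 9656 to 10768 in UIRI + BA, 7 of the 8 being lower with BA. Fibroblast genes summed to 94412 to 113276 and 69840 to 92157, all 9 being lower. The part of either cell type in the higher Vcam1 was not tested.

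**Figure D2:**
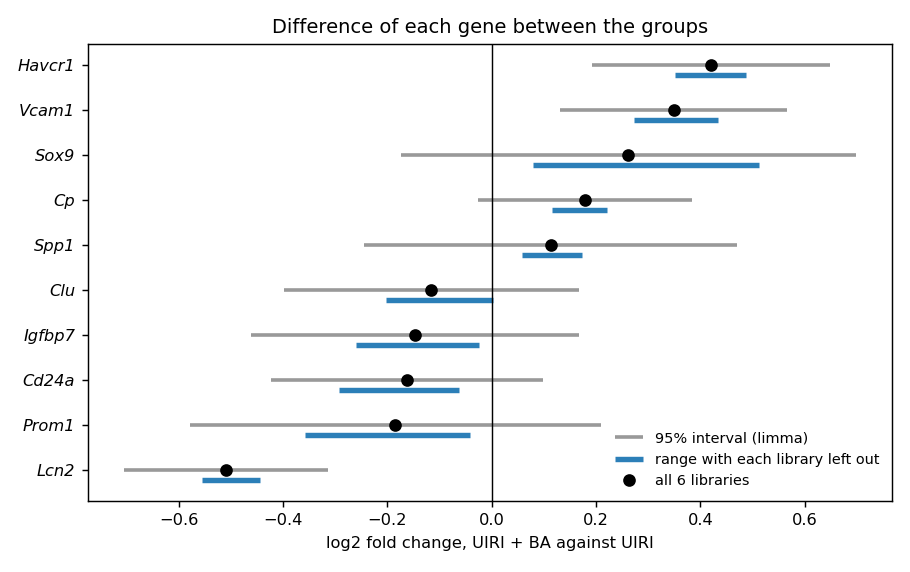
Log2 fold change of each gene (UIRI + BA against UIRI, horizontal axis) with its 95% interval from limma in grey and the range over 6 fits without 1 library in blue. The intervals of Havcr1, Vcam1 and Lcn2 lie to 1 side of 0, before any adjustment for the number of genes, and the blue range of Clu reaches 0.0033.

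Sox9 encodes a transcription factor that proximal tubule cells switch on after injury and switch off once repair succeeds. It lies at chr11:112782224-112787760 on the plus strand, with 1 transcript of 3 exons. Its normalized count was 614, 720 and 1118 in mice 1 to 3 of the UIRI group and 879, 1059 and 916 in mice 1 to 3 given BA. UIRI replicate 3 held the highest value of all 6 libraries, while UIRI replicates 1 and 2 held the lowest. The log2 fold change of 0.26 (SE 0.19) had a limma adjusted p of 0.640. Without UIRI replicate 3 it was 0.51 (SE 0.11) with a limma adjusted p of 0.0339, and without UIRI replicate 1 it was 0.080. The value of Sox9 therefore turns on single UIRI libraries.

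The secreted proteins came next in role. Spp1, or osteopontin, is a phosphoprotein of injured tubules and macrophages that binds integrins and CD44. It lies at chr5:104435118-104441050 on the plus strand and held the highest mean normalized count of the whole table. Its values were 369231, 370438 and 357924 under vehicle and 364119, 427521 and 397954 under BA, so that the groups overlapped. The log2 fold change was 0.11 (95% interval -0.24 to 0.47, limma adjusted p 0.806), which leaves a change of either sign possible. It was 0.057 without UIRI + BA replicate 2 and 0.17 without UIRI + BA replicate 1. In reads, Spp1 took 1.71% to 1.76% of a UIRI library and 1.76% to 2.01% of a UIRI + BA library. Macrophage genes, its other main source, were lower with BA in 10 of 10 cases, 3 of them with an unadjusted p below 0.05, a count that was 1 without UIRI replicate 1 and 10 without UIRI replicate 3. Of the receptor genes, Itgav, Itgb3, Itga9 and Cd44 had log2 fold changes of 0.16, 0.33, -0.11 and 0.12, and Itgb3 alone of the 4 had an unadjusted p below 0.05 (limma adjusted p 0.486).

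Clu encodes clusterin, a secreted chaperone, and lies at chr14:65968483-65981547 on the plus strand. It read 35213, 33353 and 29725 under vehicle and 31570, 33988 and 25574 under BA, with UIRI + BA replicate 3 lowest. Its log2 fold change was -0.12 (SE 0.13, limma adjusted p 0.748) and was 0.0033 without that library. Igfbp7, a secreted binding protein used with TIMP-2 as a urinary marker of tubule stress, lies at chr5:77349240-77408041 on the minus strand. It read 37121, 37196 and 29327 under vehicle and 26152, 33402 and 34142 under BA. The groups overlapped, and the log2 fold change of -0.15 (SE 0.14, limma adjusted p 0.709) became -0.024 without UIRI + BA replicate 1 and -0.26 without UIRI replicate 3. Timp2, its partner in the urine test, read 7627, 7263 and 7632 under vehicle and 6667, 6384 and 6638 under BA. These values did not overlap, with a log2 fold change of -0.19 (SE 0.070, limma adjusted p 0.431).

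Cp encodes ceruloplasmin, a copper-bearing ferroxidase that works with the iron exporter of Slc40a1. It lies at chr3:19957054-20009145 on the plus strand. It read 15845, 17778 and 18344 under vehicle and 20634, 18615 and 19496 under BA, so that the groups stood apart by a narrow margin. The log2 fold change was 0.18 (SE 0.091, 95% interval -0.027 to 0.38), with a limma adjusted p of 0.528 and p = 0.1 in the exact permutation test. Slc40a1 differed by 0.0075 on the log2 scale, and Heph, the other ferroxidase of the list, by -0.44 with overlapping groups (limma adjusted p 0.519).

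Prom1 and Cd24a encode CD133 and CD24, surface proteins that are used together to recognise scattered tubule cells. Prom1 lies at chr5:43993620-44102032 on the minus strand and read 6127, 4621 and 7169 under vehicle and 4975, 4371 and 6354 under BA. Cd24a lies at chr10:43578284-43584265 on the plus strand and read 12030, 9615 and 13210 under vehicle and 10638, 9890 and 10358 under BA. In both genes UIRI replicate 3 held the highest value and the groups overlapped. The log2 fold changes were -0.18 (SE 0.17) for Prom1 and -0.16 (SE 0.12) for Cd24a, with adjusted p of 0.709 and 0.628 from limma. Without UIRI replicate 3 they were -0.042 and -0.064, and without UIRI replicate 2 they were -0.36 and -0.29. Processed copies of Cd24a may share its reads, which was not examined, so its count is given as uncertain.

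Per kilobase of exon, Spp1 was the most abundant of the 10, with 231309 normalized counts per kb over the 6 libraries, and ranked 2 among all genes with a known length. Igfbp7 followed with 27204 per kb, then Clu with 9185, Havcr1 with 7885 and Cd24a with 4247. Cp, Vcam1 and Lcn2 had 1929, 1799 and 1563 per kb, Prom1 had 781 and the transcription factor gene Sox9 had 214. The ranges over the 6 libraries overlapped for Clu and Havcr1, for Cp and Vcam1, and for Vcam1 and Lcn2, so that those neighbours were not separated. The length used joins all annotated exons of a gene, 2623 bases for Lcn2 and 9566 for Cp, and can exceed that of its main transcript. The order of the other genes therefore also depends on the annotation. By the lowest and highest values of the 10 genes, no library stood out. Each of the 6 held the lowest value for 1 to 3 of the genes and the highest value for 1 to 3. These counts do not grade injury, and the proximal tubule genes below did set UIRI replicate 3 apart within its group.

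Mature proximal tubule genes moved alongside. Of 18 such genes (median log2 fold change 0.68), 17 were higher with BA, beside 9383 of all 19176 rows. Of the 17, 14 had an unadjusted p below 0.05, while 5.67% of all rows were higher with such a p. Without UIRI replicate 2 the count was 9, and 1339 of all 19176 rows, in either direction, had such a p. The mean log2 value of the 18 genes was 10.35, 10.33 and 10.92 in UIRI replicates 1 to 3 and 10.99 to 11.41 in UIRI + BA. UIRI replicate 3 thus lay nearer to the UIRI + BA libraries than UIRI replicates 1 and 2 did. The summed normalized count of the 18 genes was 70458 to 93325 in UIRI and 102422 to 161488 in UIRI + BA. Much of this sum was Kap, the most abundant of them. Kap read 29077, 32021 and 30671 under vehicle and 27223, 41925 and 76195 under BA, with overlapping groups (limma adjusted p 0.556). Hnf4a, the transcription factor that keeps the proximal tubule mature, read 3052, 3653 and 3797 under vehicle and 5096, 4819 and 5429 under BA (log2 fold change 0.55, limma adjusted p 0.225). Each gene was therefore also taken relative to the mean log2 value of these 18 genes in the same library, a ratio that does not depend on the scaling of the library and that was added after the values were seen. The mean of the 18 genes was 0.64 higher with BA on the log2 scale, so the ratio takes the same 0.64 from the difference of every gene, and 97% of all rows lie below 0 on it. The sign of the 10 genes on this ratio was fixed by that shift and is no result about them. Lcn2 differed by -1.14, Prom1 by -0.82, Cd24a by -0.80 and Cp by -0.46, these 4 without overlap (exact permutation test, p = 0.1 for each). Since 48.3% of all rows were lower without overlap on the ratio, 4 of 10 is close to the background. Havcr1 differed by -0.21 and Vcam1 by -0.29, both with overlapping groups (exact permutation test, p = 0.5 for each). Leaving out UIRI replicate 3 gave -0.39 for Havcr1 and -0.56 for Vcam1, whereas leaving out UIRI replicate 2 gave -0.066 and -0.10. Havcr1 was -0.36 and -0.10 when UIRI + BA replicate 2 or 3 was left out. Whether the share of proximal tubule in the sample or the expression per cell set these ratios cannot be told apart.

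**Figure D3:**
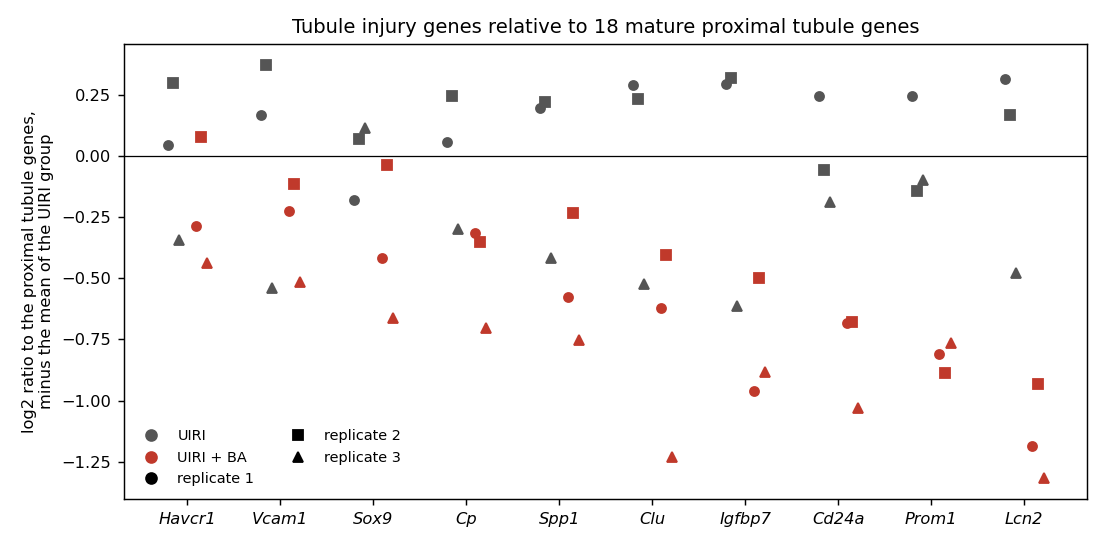
Log2 ratio of each gene to the mean of 18 mature proximal tubule genes in the same library, minus the mean of that ratio in the UIRI group (vertical axis), for 3 UIRI libraries (grey) and 3 UIRI + BA libraries (red). The groups stand apart for Cp, Cd24a, Prom1 and Lcn2, beside 48.3% of all rows, and the reference genes, 0.64 higher with BA, lower every gene by the same amount.

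The receptors, partners and nearest relatives of the 10 showed no common direction. Of 21 looked for, 20 were in the table, 10 higher and 10 lower with BA. In each direction 2 had an unadjusted p below 0.05 in limma, beside 5.67% of all rows higher and 4.61% lower. The count was 2 in all without UIRI replicate 1 or UIRI + BA replicate 1, where 808 and 1270 of all 19176 rows had such a p. Lrp2, or megalin, which takes Lcn2 back up from the filtrate and is itself a proximal tubule gene, read 2912, 3608 and 5119 under vehicle and 7005, 5484 and 7057 under BA. Its log2 fold change was 0.78 (SE 0.19, limma adjusted p 0.263), so the uptake receptor and its ligand gene differed in opposite directions. Slc22a17, the other Lcn2 receptor gene, differed by 0.060. Trem2, a macrophage receptor that binds clusterin, differed by -0.58 with overlapping groups (SE 0.18, limma adjusted p 0.372).

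The other tubule injury genes leaned slightly lower with BA. Of 30 genes, 18 were lower and 12 higher (median -0.088 on the log2 scale), beside 9793 and 9383 of all 19176 rows. Their mean log2 value overlapped between the groups, at 10.53 to 10.79 in UIRI and 10.49 to 10.62 in UIRI + BA. Their summed normalized count did not, at 106232 to 113064 and 89158 to 104949. Before adjustment 9 of the lower and 3 of the higher genes came under 0.05 in limma, and after it 0 did. The shares of all rows under 0.05 before adjustment were 4.61% lower and 5.67% higher. Mmp7, a matrix protease and Wnt target of injured tubules, read 458, 307 and 448 under vehicle and 173, 158 and 279 under BA (log2 fold change -1.01, SE 0.23, limma adjusted p 0.249). The keratin genes of simple epithelium Krt18 and Krt19 differed by -0.39 and -0.54, both without overlap. Tmsb10 and Tpm1, the most abundant of the list, differed by -0.25 and -0.29. The 3 genes on the other side, named after their values were seen, were Krt20 (0.41), Myc (0.42) and Fga (0.40). The count of 12 genes was 6 without UIRI replicate 1 or UIRI + BA replicate 1 and 19 without UIRI replicate 3. In these fits 808, 1270 and 4838 of all 19176 rows came under 0.05. Macrophage and fibroblast genes were lower with BA in 10 of 10 and 9 of 9 cases. The part of those cells in this list was not tested. Krt20 had the sign of Havcr1, and Krt18 and Krt19 that of Lcn2. Since any gene shares its sign with Havcr1 or Lcn2, this does not group the markers. Krt18 and Krt19 were also named for their low p.

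The other failed repair genes leaned the opposite way. Of 20 genes, 13 were higher and 7 lower (median 0.095 on the log2 scale), beside 9383 and 9793 of all 19176 rows. Before adjustment 3 came under 0.05 in limma, all higher, beside 5.67% of all rows. This count was 6 without UIRI replicate 3, where 4838 of all 19176 rows came under 0.05. C3, the central complement protein and the most abundant of the list, read 17262, 19166 and 17139 under vehicle and 26577, 30809 and 23775 under BA (log2 fold change 0.59, SE 0.11, limma adjusted p 0.225). Itgb8, an integrin chain that activates TGF-beta, differed by 0.60, and Ccl2, a monocyte chemokine of inflamed tubules, by 0.34, both without overlap. Cx3cl1, a membrane chemokine, differed by 0.044. Vcam1 had the sign of C3, Itgb8 and Ccl2, but these were named for their low p. That match is therefore no result about the list, in which 7 genes were lower. Whether the 2 lists differed from each other was not tested.

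**Figure D4:**
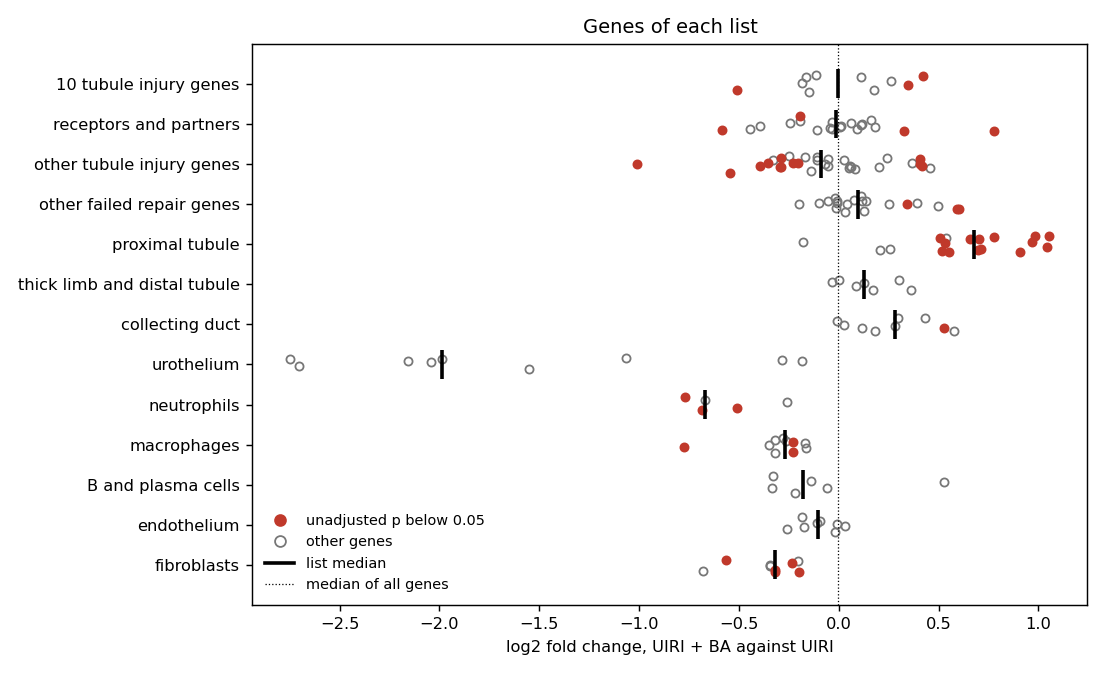
Log2 fold change (UIRI + BA against UIRI, horizontal axis) of each gene in the 10 tubule injury genes and 12 further lists, with filled red points for an unadjusted p below 0.05 and a black bar for the list's median. The bar lies at 0.68 for proximal tubule genes, at -0.67 for neutrophil genes and at -0.32 for fibroblast genes, and close to the dotted median of all genes for the 10.

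Among the further cell types, thick limb and distal tubule genes had a median log2 fold change of 0.13 and 0 of 7 with an unadjusted p below 0.05, Umod differing by 0.13. Collecting duct genes had a median of 0.28 and 1 of 9, Slc26a4, with such a p (0 without UIRI replicate 1 or 2 or UIRI + BA replicate 1 or 2, 3 without UIRI replicate 3, 4 without UIRI + BA replicate 3). B and plasma cell genes had a median of -0.18 and 0 of 6, with Jchain at -0.33. Endothelium genes had a median of -0.10 and 0 of 8 (3 without UIRI replicate 3), with Emcn at -0.11. Urothelium genes had a median of -1.99 and 0 of 9 (7 without UIRI + BA replicate 3), with groups that overlapped for each gene. Macrophage genes had a median of -0.27, with Gpnmb, a gene of lipid-laden macrophages, at -0.77 (limma adjusted p 0.225). Fibroblast genes had a median of -0.32 and 5 of 9 with an unadjusted p below 0.05 (3 without UIRI replicate 1 or UIRI + BA replicate 1, 8 without UIRI + BA replicate 3), Col3a1 differing by -0.56. Over all rows, 5.67% were higher and 4.61% lower with such a p. Without UIRI replicates 1, 2 and 3 in turn, 808, 1339 and 4838 of 19176 rows had one. Without UIRI + BA replicates 1, 2 and 3 in turn, 1270, 1860 and 1612 rows did.

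Promoter windows were found in RefSeq (GRCm38.p6) for 6 of the 10 genes, 11 windows in all, each from 250 bases before a transcript start onward. The pattern TGANTCA, a loose form of the AP-1 motif with any middle base, was searched on both strands. It was present in 4 of the 11 windows (of Havcr1, Cp and Prom1) and in 7.81% of all windows of that length. The matches read TGAATCA in Havcr1, TGATTCA in Cp, and TGAATCA and TGACTCA in Prom1. Of these, only TGACTCA has the C or G in the middle that the AP-1 consensus asks for. The SOX motif ACAAAG was present in 4 of the 11 windows and in 18.7% of all windows. Those windows belong to 2 of the 6 genes, Spp1 and Cp. The Cp windows overlap and hold a SOX match in common, so they are not separate counts. The NF-kappaB motif was found in 0 of the 11 windows and in 8.46% of all windows, which says only that these letters are absent from these windows. Below stand the windows of the pair that differed in opposite directions. They are the Lcn2 window (chr2:32387710-32387989, minus strand) and the only 1 of 3 Havcr1 windows with a searched pattern (chr11:46750918-46751197, plus strand). The TGANTCA match, which begins 10 bases after the start, is in capitals. Each is cut 30 bases after the start.
Havcr1 window: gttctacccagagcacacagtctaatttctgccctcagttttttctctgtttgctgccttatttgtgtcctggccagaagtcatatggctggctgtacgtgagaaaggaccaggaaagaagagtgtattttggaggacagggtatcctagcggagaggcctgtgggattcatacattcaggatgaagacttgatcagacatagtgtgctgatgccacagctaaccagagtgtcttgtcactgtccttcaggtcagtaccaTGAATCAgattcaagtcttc
Lcn2 window: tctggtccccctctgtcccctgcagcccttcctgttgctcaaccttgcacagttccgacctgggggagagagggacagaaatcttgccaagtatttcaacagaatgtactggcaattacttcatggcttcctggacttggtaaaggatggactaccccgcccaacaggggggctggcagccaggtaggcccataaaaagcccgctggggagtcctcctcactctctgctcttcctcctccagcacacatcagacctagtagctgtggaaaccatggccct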

How the data were processed

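Poly-A RNA libraries of renal cortex were sequenced by the authors on a NovaSeq instrument, aligned with HISAT2, counted with FeatureCounts and tested with DESeq2. The genome build is not given in the sources used here. The methods name FPKM, but the deposited table holds, for each row and library, a signal: counts over the size factor of the library, since 100% of its values were whole multiples of 1 step per library (tolerance 0.01). The authors' deposited log2 fold changes and p-values, and their deposited enrichment tables, were not used, and 0 columns of values per library were left out. The table's 19176 rows hold 19166 symbols; 9 symbols with more than 1 row were kept apart.

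Values plus a pseudocount of 1 were compared on the log2 scale with limma 3.58.1 (R 4.3.3, variance trend, all rows, no covariate, Benjamini-Hochberg adjustment), as 3 UIRI against 3 UIRI + BA libraries. Calls needed an adjusted p under 0.05, and genes with an unadjusted p under 0.05 were counted too. Whole reads, recovered from the steps, also went into DESeq2 1.42.0 and edgeR 4.0.16. limma, DESeq2 and edgeR were tested on simulated data. Exact permutation tests were two-sided. The study calls the libraries independent biological replicates. Exon lengths and positions come from GENCODE M21 by symbol. Lists were for receptors and partners, other tubule injury, other failed repair, proximal tubule, thick limb and distal tubule, collecting duct, urothelium, neutrophils, macrophages, B and plasma cells, endothelium and fibroblasts. All 10 genes are named, and from each list the 2 most abundant genes and up to 3 with the lowest p and a mean of at least 10; partners are named beside their gene, and markers Slc34a1, Krt20, Myc and Fga were named outside that rule. The genes and lists were chosen with earlier results of these data known.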

Additional observations from a re-analysis of the deposited data

How the results depend on the processing

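With 13 alternative fits, the 10 genes gave 130 values beside those reported, of which 124 kept their direction and their side of an adjusted p of 0.05. Below it came Havcr1 (0.42) and Lcn2 (-0.51) with DESeq2, so 2 of the 10 instead of 0, and 213 of all genes. Without UIRI replicate 3 there were 3 of the 10 (range with each library left out 0 to 3) and 962 of all genes (0 to 962). In these fits the log2 fold change ran from 0.35 to 0.49 for Havcr1, -0.56 to -0.44 for Lcn2, 0.080 to 0.51 for Sox9 and -0.20 to 0.0033 for Clu, which turned without UIRI + BA replicate 3. Without UIRI replicate 1, all 10 had an adjusted p of 0.9995. Of the 10, 3 to 5 had an unadjusted p below 0.05, as had 808 to 4838 of all genes (808 without UIRI replicate 1, 1270 without UIRI + BA replicate 1, 4838 without UIRI replicate 3), 2 to 6 partners, 6 to 19 other injury genes and 2 to 6 other failed repair genes. Libraries sharing a number did not all deviate together (correlations -0.24, 0.30 and 0.15). These few values cannot settle whether the numbers are a pairing. The replicate block gave 6 genes of the whole table with an adjusted p below 0.05, and 5 other failed repair genes with an unadjusted one. It also took the macrophage count from 3 to 7, as DESeq2 took it to 8, and the urothelium count from 0 to 7. With edgeR's quasi-likelihood test 0 genes passed an adjusted p of 0.05 and 1703 an unadjusted one, and the lowest adjusted p of Lcn2 and Havcr1 in any fit was 7.6e-04 and 0.0127. The causes were not tested. Each of the 10 genes had at least 542 reads in every library.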
